A study of Mus musculus with 12 samples.

Results

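The data compared the ears of mice injected with IL-17A + IL-36γ with those of mice injected with PBS, in 6 of the 12 RNA-Seq libraries of the series. Members were chosen by their treatment label alone, with 3 mice in each of these groups. Female C57BL/6 mice of 8 weeks received intradermal injections of 5 µL into the ear pinna on consecutive days, either PBS alone or PBS with 1 µg of each cytokine. Ears were taken on day 4. The groups IL-17A and IL-36γ, also of 3 mice, received the cytokines singly and are used here only for reference. Each group of the study held more mice, of which these were drawn at random for sequencing, and RNA came from a homogenised part of the ear.

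IL-17A and IL-36γ are cytokines of the psoriatic network. IL-17A is made mainly by T cells and innate lymphocytes and signals through a receptor of the subunits Il17ra and Il17rc, whereas IL-36γ belongs to the IL-1 family, is released by keratinocytes and binds Il1rl2 (IL-36R). Both pathways lead to NF-kB in keratinocytes, whose targets include chemokines for neutrophils, antimicrobial peptides and the mRNA-stabilising and transcriptional cofactors of the IL-17 response. All 3 receptor chains were detected in every library. Il1rl2 lay at 111, 119 and 107 CPM after PBS and 153, 151 and 154 CPM after both cytokines, Il17ra at 30.5 and 48.5 CPM and Il17rc at 57.5 and 74.7 CPM (means of 3). CPM are library-size normalised counts after TMM scaling, and single values are given in the order of replicates 1, 2 and 3.

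Total counts ranged from 26570621 to 34759293 over the 6 libraries. Defining markers of keratinocytes (Krt5, Krt14), fibroblasts (Col1a1, Pdgfra) and endothelium (Pecam1) were present in all of them, and so were markers of ear cartilage (Acan), skeletal muscle (Acta1) and fat (Adipoq). Transcripts of liver, pancreas, lung and kidney (Apoa1, Ins2, Sftpc, Umod) held at most 8 counts in any of the 12 libraries. PBS replicate 1 stood apart from the other PBS libraries in skeletal muscle genes, which summed to 1934, 13350 and 11640 CPM in the PBS libraries, and in genes of mitosis, which summed to 1321, 672 and 692 CPM. PBS replicate 2 stood apart in several neutrophil and stress keratin genes, with S100a8 at 3.82, 31.5 and 2.24 CPM and Krt6b at 2.19, 59.7 and 0.727 CPM over the PBS libraries.

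Of 19408 genes tested, 1426 (7.35%) were raised and 1177 (6.06%) were lowered by IL-17A + IL-36γ, at an adjusted p-value below 0.05 in the quasi-likelihood test of edgeR and a log2 fold change beyond 1 in either direction. Protein-coding genes numbered 1202 raised (7.86% of 15283) and 915 lowered (5.99%). The 2 directions differed in size. A change of more than 4-fold was reached by 443 raised and 173 lowered genes, and one of more than 16-fold by 106 raised and 11 lowered genes. The median log2 fold change was 1.62 among raised and -1.34 among lowered genes. Lowered genes were mostly of low expression, with a median of 2.75 CPM after PBS against 12.3 CPM for all tested genes. Raised genes took between 3.18% and 4.28% of all counts in the PBS libraries and between 10.6% and 12.8% after both cytokines. Lowered genes took between 3.58% and 4.49% after PBS and between 1.3% and 1.72% after both cytokines. For 52.5% of the tested genes the libraries of the groups did not overlap. When libraries were scaled by total counts only, 1204 genes were raised and 1667 lowered, and over all genes the median log2 fold change was then -0.17 in place of -0.03. With only labels to separate the mice, p-values set the difference of the groups against the spread between libraries of a group. That spread was estimated over all 12 libraries. With only the 2 groups compared in the fit, 1344 genes were raised and 1006 lowered. In whole tissue, fewer cells of a type and less RNA per cell cannot be told apart.

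**Figure D1:**
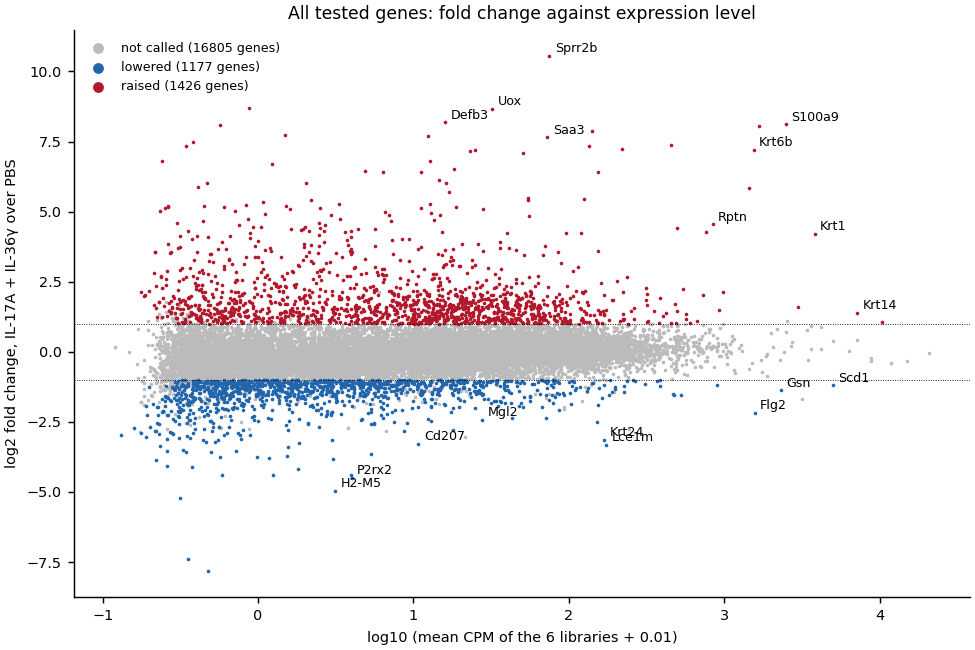
Each point is a gene, with its log10 mean CPM over the 6 libraries (plus 0.01) on the x axis and its log2 fold change of IL-17A + IL-36γ over PBS on the y axis. The 1426 raised genes (red) reached 10.55 (Sprr2b), whereas only 11 of the 1177 lowered genes (blue) fell by more than 16-fold, and dotted lines mark a log2 fold change of 1 and -1.

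Promoters of some raised genes and of Lce1m and Flg2, which were lowered, are shown before the values. Sequences of 250 bases before the transcription start were taken from RefSeq (build GRCm38.p6), with an entry for 899 of the 1202 raised and 685 of the 915 lowered protein-coding genes. Searched on both strands were the NF-kB element, C/EBP (TTGCNNAA), AP-1 (TGANTCA), STAT (TTCNNNGAA), the interferon-stimulated response element, the CCAAT box (CCAAT) and the TATA box (TATAAA), and matches of different elements may overlap. Shares of promoters with a match are given for raised, lowered and all tested protein-coding genes, in this order. They were 2.95%, 0.673% and 1.53% for NF-kB, 10%, 5.38% and 5.14% for AP-1 and 7.9%, 2.13% and 2.77% for the interferon-stimulated element. For C/EBP they were 11.6%, 9.08% and 7.94%, and for STAT 8.57%, 5.72% and 5.98%. For the TATA box they were 13.1%, 11.2% and 7.46%, and for the CCAAT box 34.3%, 31.3% and 34.5%. Over all promoters of the table, tested or not, the shares were 1.41% for NF-kB, 6.75% for AP-1 and 2.98% for the interferon-stimulated element. A match describes letters and is not a bound site.

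The promoters of Cxcl1, Cxcl2 and Cxcl3, chemokines that call neutrophils through CXCR2, are shown because each holds the NF-kB letters within 100 bases of the start, in capitals as all matches below. They lie at chr5:90891125-90891244, chr5:90903779-90903898 and chr5:90785981-90786100, all on the plus strand.
Cxcl1: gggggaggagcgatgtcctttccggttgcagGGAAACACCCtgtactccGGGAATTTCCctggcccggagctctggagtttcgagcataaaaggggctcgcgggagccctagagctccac
Cxcl2: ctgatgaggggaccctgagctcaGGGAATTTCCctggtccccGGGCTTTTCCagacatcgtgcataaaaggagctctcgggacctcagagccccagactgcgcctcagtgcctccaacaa
Cxcl3: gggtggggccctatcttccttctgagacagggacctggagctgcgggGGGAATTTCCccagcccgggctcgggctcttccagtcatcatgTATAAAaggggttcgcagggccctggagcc
The letters occurred in 3 of the 5 promoters of this group of chemokines.

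The promoters of Isg15, a ubiquitin-like protein, and Ifit1, a sensor of foreign RNA, stand for the interferon-stimulated genes, where the interferon-stimulated response element was found in 11 of 20 promoters (55%). They lie at chr4:156200819-156200938 (minus strand) and chr19:34640769-34640888 (plus strand).
Isg15: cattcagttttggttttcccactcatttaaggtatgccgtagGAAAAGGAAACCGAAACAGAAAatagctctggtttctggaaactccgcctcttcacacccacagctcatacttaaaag
Ifit1: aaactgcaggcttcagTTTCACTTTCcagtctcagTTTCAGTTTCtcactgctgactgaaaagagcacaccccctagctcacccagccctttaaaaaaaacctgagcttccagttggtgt

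The promoters of Ccnb1 and Cdc20, a cyclin and an activator of the anaphase-promoting complex, stand for the mitosis genes, whose list held a CCAAT box in 20 of 23 promoters (87%). They lie at chr13:100786487-100786606 and chr4:118437344-118437463, both on the minus strand.
Ccnb1: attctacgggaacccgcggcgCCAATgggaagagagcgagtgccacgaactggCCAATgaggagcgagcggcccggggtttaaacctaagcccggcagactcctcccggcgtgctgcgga
Cdc20: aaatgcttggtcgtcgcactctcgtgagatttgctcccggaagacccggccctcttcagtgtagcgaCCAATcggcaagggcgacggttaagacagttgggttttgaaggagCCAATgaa

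The promoters of Sprr2b, Sprr2d and Sprr2f, small proline-rich proteins of the cornified envelope, are shown because an AP-1 match and a TATA box stand at nearly the same distance from the start in all 3. They lie at chr3:92316455-92316704, chr3:92338890-92339139 and chr3:92364937-92365186, on the plus strand, and AP-1 letters occurred in 9 of the 14 Sprr promoters (64.3%).
Sprr2b: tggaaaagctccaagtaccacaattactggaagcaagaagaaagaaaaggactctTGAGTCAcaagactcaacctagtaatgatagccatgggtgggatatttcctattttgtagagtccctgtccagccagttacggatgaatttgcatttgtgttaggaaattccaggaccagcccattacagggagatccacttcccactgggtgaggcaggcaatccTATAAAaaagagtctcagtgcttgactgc
Sprr2d: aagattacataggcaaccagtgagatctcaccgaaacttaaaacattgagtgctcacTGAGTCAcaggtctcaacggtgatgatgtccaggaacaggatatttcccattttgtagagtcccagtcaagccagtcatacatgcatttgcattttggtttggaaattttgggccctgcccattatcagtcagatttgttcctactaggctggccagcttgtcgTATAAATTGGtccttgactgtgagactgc
Sprr2f: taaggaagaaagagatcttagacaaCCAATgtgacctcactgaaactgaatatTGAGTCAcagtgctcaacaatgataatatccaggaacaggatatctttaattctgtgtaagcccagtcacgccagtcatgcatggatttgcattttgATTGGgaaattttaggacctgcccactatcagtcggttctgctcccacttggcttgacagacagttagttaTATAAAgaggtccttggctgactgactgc

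Lce1m and Flg2, which code for proteins of the resting cornified layer and lie in the same gene cluster of chromosome 3, are shown as lowered neighbours of the Sprr genes. Lce1m lies at chr3:93019062-93019311 (minus strand) and held only a TATA box. Flg2 lies at chr3:93197023-93197272 (plus strand) and held an AP-1 and a C/EBP match.
Lce1m: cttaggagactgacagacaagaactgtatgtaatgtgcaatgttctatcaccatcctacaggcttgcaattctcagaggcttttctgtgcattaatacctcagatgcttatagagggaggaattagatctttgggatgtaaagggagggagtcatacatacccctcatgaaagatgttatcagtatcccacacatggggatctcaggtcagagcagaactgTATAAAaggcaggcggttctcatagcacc
Flg2: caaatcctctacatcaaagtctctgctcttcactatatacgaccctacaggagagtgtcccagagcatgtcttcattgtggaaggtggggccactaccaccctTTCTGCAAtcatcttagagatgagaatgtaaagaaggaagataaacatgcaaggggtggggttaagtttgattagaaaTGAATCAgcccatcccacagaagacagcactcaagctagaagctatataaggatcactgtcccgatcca

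Gene lists were drawn up for 58 cell types, pathways and families, and 264 of the 1202 raised and 128 of the 915 lowered protein-coding genes belonged to at least 1 of them. Lists are given below by the members that passed the test, for some with the median log2 fold change, beside a median of -0.03 over all tested genes.

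**Figure D2:**
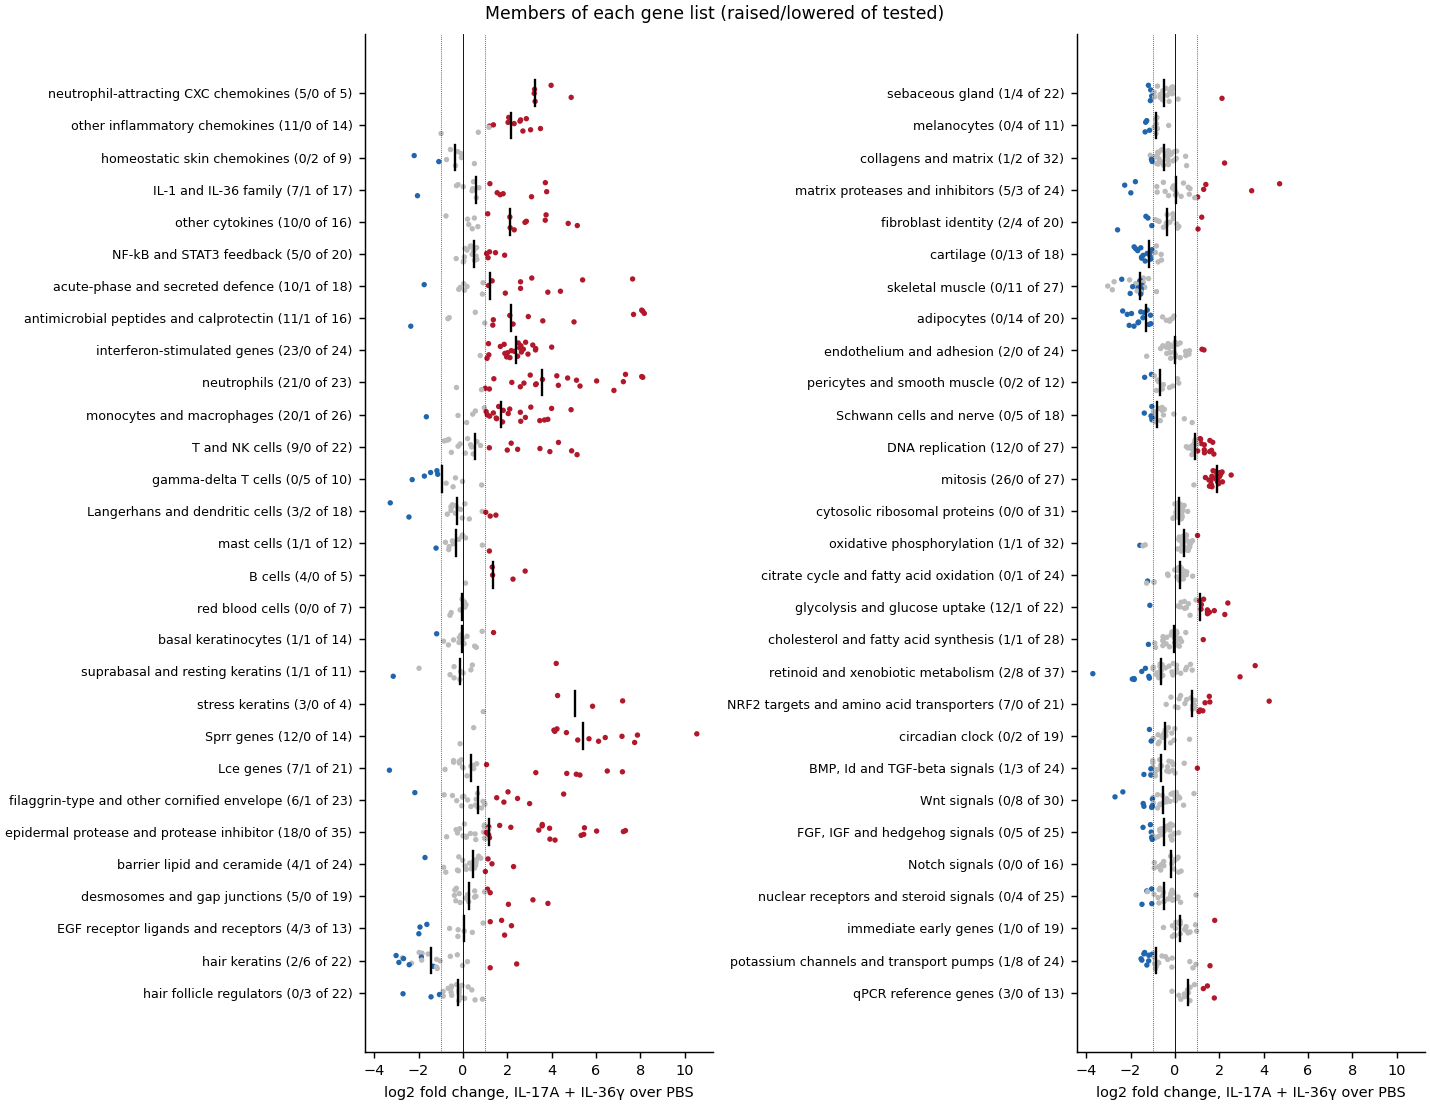
Each point is a member of a gene list and shows its log2 fold change of IL-17A + IL-36γ over PBS on the x axis, in red where raised, blue where lowered and grey where not called, and black bars are list medians. The label of each row gives members raised and lowered of those tested: 21 and 0 of 23 for neutrophils, 26 and 0 of 27 for mitosis, 0 and 13 of 18 for cartilage, and 0 and 14 of 20 for adipocytes.

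All 5 tested chemokines that act on CXCR2 were raised, with a median log2 fold change of 3.26. Cxcl5 rose from 0.3599, 0.906 and 0.0606 CPM to 21.6, 9.51 and 8.996 CPM (log2 fold change 4.88 ± 0.95, SE, adjusted p = 0.0016), and Ppbp from 0.443, 0.368 and 0.273 to 4.02, 1.86 and 4.62 CPM. Cxcl1 was highest in replicate 3 of the combination, at 8.82, 9.66 and 22.3 CPM against 0.831, 1.02 and 0.727 CPM after PBS. In Cxcl2 the PBS mice did not resemble each other, with 0.194, 5.01 and 0.182 CPM against 28.4, 11.7 and 11 CPM, and its call was lost in DESeq2 and without PBS replicate 1 or 3 or combination replicate 1. With any 1 of these 3 libraries left out, 3 of the 5 chemokines were raised. Of the other inflammatory chemokines 11 of 14 were raised and 0 lowered. Among them Cxcl9, which draws T cells through CXCR3, lay at 1.6, 16.7 and 3.54 CPM after both cytokines against 0.498, 0.906 and 0.515 CPM after PBS. Of the resting skin chemokines 0 were raised and 2 lowered of 9 (1 lowered without PBS replicate 2 or combination replicate 1). Ccl27a, the keratinocyte chemokine for CCR10, fell from 5.62, 9.63 and 9.82 to 1.48, 1.5 and 2.44 CPM (log2 fold change -2.20 ± 0.28, adjusted p = 0.000113). Of the 76-base windows of the Ccl27a transcript, which have the length of a read, 57.4% also occur in predicted genes, so that its counts may be shared.

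Within the IL-1 and IL-36 family 7 of 17 members were raised and 1 was lowered. Il1f6 (IL-36α) rose most, from 12.5, 9.99 and 6.15 to 164, 109 and 121 CPM (log2 fold change 3.78 ± 0.30, adjusted p = 1.01e-05). The injected cytokine's own gene, Il1f9 (IL-36γ), rose from 41.2, 38.8 and 36.4 to 184, 99.05 and 127 CPM (log2 fold change 1.82 ± 0.18). Il1b reached 95.3, 45.3 and 60.03 CPM, with PBS values of 1.61, 12.4 and 1.12 CPM that again were highest in replicate 2. Il1f10 (IL-38), described as a receptor antagonist of the family, was the exception and fell from 10.1, 10.7 and 9.79 to 2.89, 1.54 and 2.94 CPM (log2 fold change -2.05 ± 0.30, adjusted p = 0.000269). Of the other cytokines 10 of 16 tested were raised, and 7 more, among them Il17a, Il23a and Ifng, had too few counts to be tested. Il6 rose from 0.304, 0.255 and 0.242 to 1.37, 3.77 and 5.79 CPM (log2 fold change 3.75 ± 0.50), and Il19, a cytokine of the IL-20 subfamily, reached 1.52, 1.21 and 2.21 CPM. Il22 remained low, at 0.702, 0.475 and 0.301 CPM, with 0, 0.0283 and 0 CPM after PBS, and 29.5% of its windows also occur in Iltifb.

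The feedback genes of NF-kB and STAT3 moved less, with 5 of 20 raised and a median of 0.50. Zc3h12a, an RNase that limits IL-17 responses, rose from 19.7, 24.8 and 17.8 to 85.5, 74.6 and 69.8 CPM (log2 fold change 1.88 ± 0.15, adjusted p = 1.12e-05). Nfkbiz, the cofactor through which IL-17A and IL-36 act on many of their targets, rose from 36.5, 44.7 and 37.2 to 95.8, 86.03 and 90.6 CPM (log2 fold change 1.20 ± 0.11). Stat3 stayed below the fold threshold with a log2 fold change of 0.63 ± 0.10.

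Acute-phase and secreted defence proteins held 10 raised and 1 lowered of 18. Saa3, a serum amyloid A of tissues, rose from 0.831, 0.934 and 0.364 to 135, 98.1 and 202 CPM. Lcn2, which binds bacterial siderophores, rose from 2.104, 3.57 and 1.85 to 118, 100.3 and 100.4 CPM with little spread (log2 fold change 5.40 ± 0.24, adjusted p = 7.08e-07), and Chil1 from 50.3, 55.1 and 30.1 to 1099, 904 and 859 CPM (log2 fold change 4.40 ± 0.22). Antimicrobial peptides and calprotectin held 11 raised and 1 lowered of 16 (2 lowered without combination replicate 3). S100a9, a calprotectin subunit, lay at 5.26, 45.2 and 3.36 CPM after PBS and 6080, 4503 and 4341 CPM after both cytokines. Defb3, a beta-defensin, rose from 0.08305, 0.198 and 0.0303 to 62.4, 12 and 21.1 CPM (log2 fold change 8.18 ± 1.12, adjusted p = 0.000169). In contrast Wfdc21, a whey acidic protein-type secreted protein, fell from 71.5, 73.2 and 72.96 to 13.7, 10.2 and 18.7 CPM (log2 fold change -2.35 ± 0.23, adjusted p = 2.8e-05), with almost equal values in the PBS mice.

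The interferon-stimulated genes rose almost without exception, with 23 of 24 raised, 0 lowered and a median of 2.39. Oas1a, an activator of RNase L, rose from 0.913, 1.56 and 0.788 to 12.2, 21.5 and 18.9 CPM (log2 fold change 4.01 ± 0.30, adjusted p = 7.33e-06), with 47.3% of its windows shared with Oas1g. Oasl2 rose from 1.94, 5.41 and 2.73 to 21.9, 35.99 and 39.7 CPM (log2 fold change 3.28 ± 0.39). Combination replicate 1 was the lowest of its group in Ifi44, with 1.44, 5.67 and 4.98 CPM over the combination libraries. Families read from gene symbols showed the same, with 8 of 8 guanylate-binding proteins (Gbp) and 11 of 15 Ifi genes raised. Gbp2 rose from 10.8, 19.3 and 15.6 to 36.7, 154 and 62.1 CPM. The immunoproteasome subunits Psmb8, Psmb9 and Psmb10 were the 3 raised genes among 10 Psmb genes, with Psmb8 at 14.3, 18.4 and 15.8 and 43.6, 86.03 and 53.6 CPM (log2 fold change 1.92 ± 0.22, adjusted p = 6.07e-05).

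Leukocyte genes separated by cell type. Of the neutrophil genes 21 of 23 were raised, with a median of 3.59 and summed levels of 1103, 856 and 761 CPM after PBS and 12370, 9397 and 9731 CPM after both cytokines. S100a8 and S100a9, which keratinocytes make too, carried most of the latter sum. Without them the levels were 1094, 779 and 755 CPM after PBS and 2523, 1719 and 2255 CPM after both cytokines. The remaining sum still held genes that are also on epidermal lists, namely Asprv1, Stfa2 and Stfa3, and is not a level of neutrophils alone. Ly6g, the defining surface marker, had no count in any PBS library and lay at 0.858, 0.549 and 0.602 CPM after both cytokines, at least 23.3-fold higher when PBS is set to a floor of 3 counts over its 3 libraries. Stfa3, a stefin of neutrophils and epidermis, rose from 2.05, 5.804 and 0.758 to 437, 495 and 378 CPM (log2 fold change 7.24 ± 0.93, adjusted p = 0.000119). Monocyte and macrophage genes held 20 raised and 1 lowered of 26. Ly6c2, of inflammatory monocytes, rose from 0.775, 1.81 and 0.303 to 17.8, 41.6 and 26.8 CPM (log2 fold change 4.88 ± 0.50, adjusted p = 3.25e-05). Timd4, a receptor of resident macrophages, fell from 0.775, 0.963 and 1.24 to 0.273, 0.329 and 0.334 CPM (log2 fold change -1.65 ± 0.32, adjusted p = 0.0015). Other macrophage genes of the list did not fall with it, as Mrc1 and Folr2 were raised and Cd163 and Lyve1 were not called.

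Lymphocyte genes moved in opposite directions. Among the T and NK cell genes 9 of 22 were raised. They were the receptor genes Trac and Cd8a, the regulatory and activation genes Foxp3, Ctla4, Il2ra and Icos, and the cytotoxic or NK cell genes Gzma, Gzmb and Ncr1. Gzmb, a granzyme, rose from 0.3599, 0.425 and 0.182 to 4.097, 4.97 and 5.85 CPM (log2 fold change 3.92 ± 0.43, adjusted p = 4.56e-05), and Ncr1, an NK cell receptor, lay at 1.05, 1.57 and 0.8695 CPM after both cytokines and at 1 count in each PBS library. Cd3g, common to all T cells, was not called and lay at 9.72, 10.02 and 8.79 and 5.93, 5.78 and 5.79 CPM (log2 fold change -0.71 ± 0.12). The gamma-delta T cell list, which names the resident cells of mouse epidermis, had 0 raised and 5 lowered of 10, with a median of -0.95. Xcl1, their chemokine for dendritic cells, fell from 1.41, 1.56 and 1.67 to 0.234, 0.402 and 0.301 CPM (log2 fold change -2.29 ± 0.24, adjusted p = 3.97e-05), and the receptor segment Tcrg-V5 from 1.63, 1.81 and 1.67 to 0.429, 0.768 and 0.334 CPM (log2 fold change -1.74 ± 0.32). In both genes the groups did not overlap.

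Langerhans and dendritic cell genes held 3 raised (Batf3, Ccr7 and Fscn1) and 2 lowered of 18. Without PBS replicate 1 or combination replicate 1 or 3, 2 were raised. Cd207 (langerin), the defining marker of Langerhans cells, fell from 14.4, 24.1 and 20.04 to 1.79, 1.43 and 2.78 CPM (log2 fold change -3.28 ± 0.33, adjusted p = 3.25e-05). Mgl2, of dermal dendritic cells and macrophages, fell from 32.2, 55.9 and 52.6 to 6.44, 5.34 and 14.1 CPM (log2 fold change -2.43 ± 0.34, adjusted p = 0.000184). The MHC class II genes carried by the same cells were not called, with Cd74 at -0.47 ± 0.14 and H2-Aa at -0.32 ± 0.14 on the log2 scale. Mast cell proteases were not called. Cpa3 lay at 78.98, 68.6 and 66.9 and 71.9, 72.1 and 68.2 CPM and Cma1 at 57.3, 49.8 and 47.04 and 54.2, 58.4 and 55.05 CPM, whereas the mast cell receptor Mrgprb2 fell from 5.73, 8.44 and 7.67 to 3.82, 1.72 and 3.88 CPM (log2 fold change -1.21 ± 0.26, not called without combination replicate 2, at -0.93). B cell genes were raised in 4 of 5 tested, with Cd79b from 0.304, 0.283 and 0.546 to 3.24, 2.63 and 2.11 CPM, and red blood cell genes in 0 of 7. A further 5 B cell genes, among them Ms4a1, Cd79a and Pax5, had too few counts to be tested.

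**Figure D3:**
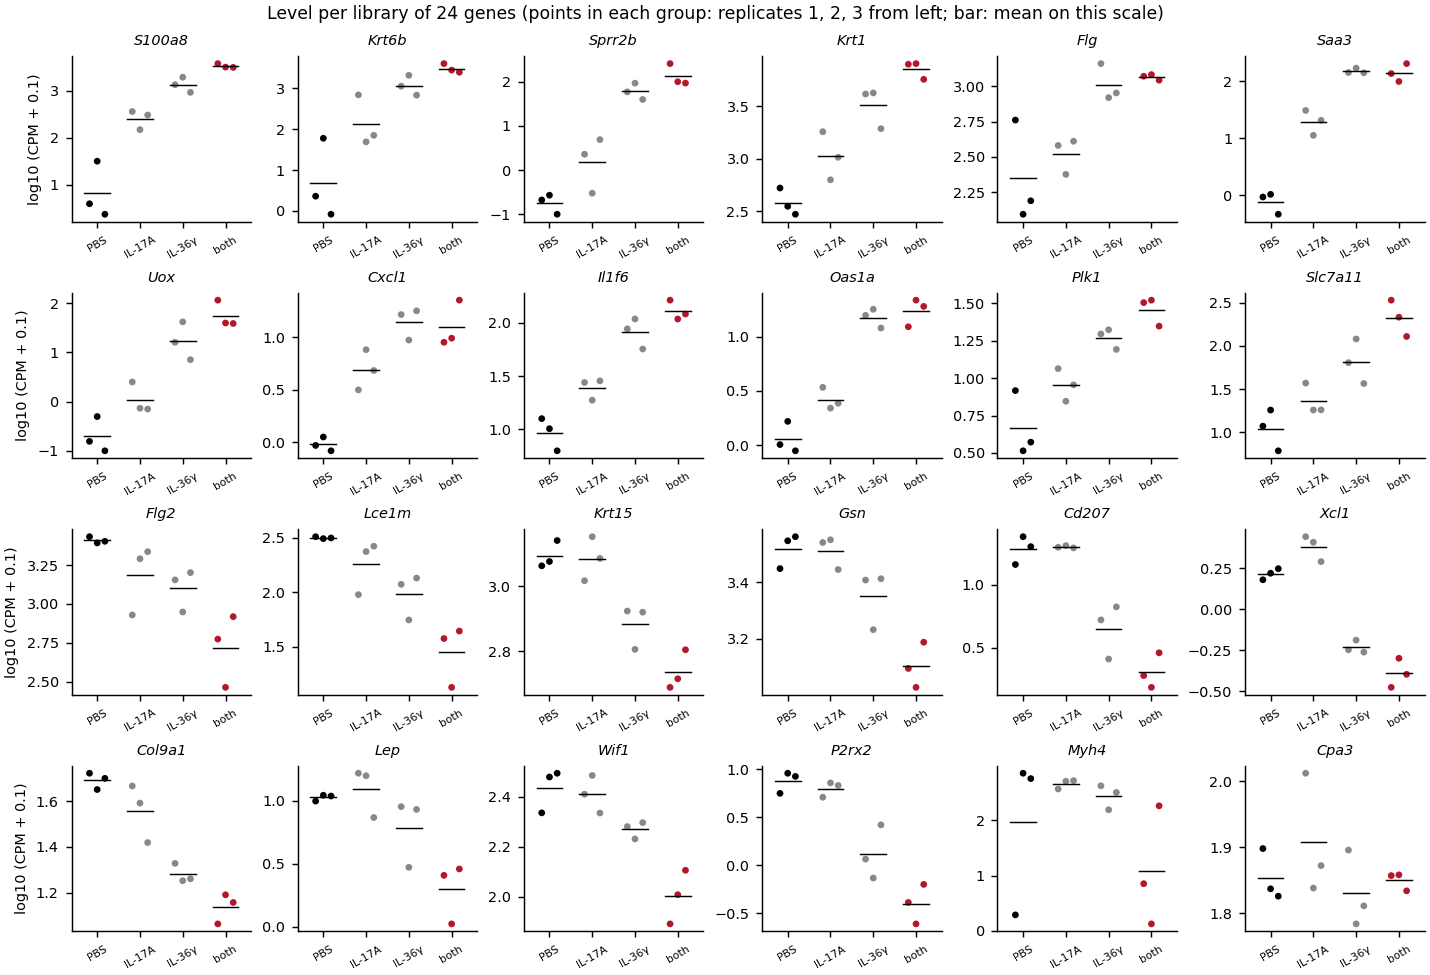
Each panel is a gene and each point a library, with the 4 groups on the x axis ("both" is IL-17A + IL-36γ), log10 (CPM + 0.1) on the y axis and bars at the group mean on this scale. Genes such as Krt1, Uox and Oas1a are separated from PBS in all 3 combination libraries, Lep and Wif1 lie lower, and Myh4 overlaps because PBS replicate 1 holds 1.86 CPM.

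The epidermis changed its keratins and its cornified envelope. Of the stress keratins, which mark wounded and psoriatic epidermis, 3 of 4 were raised. Krt6b rose to 4002, 2775 and 2463 CPM (log2 fold change 7.20 ± 1.57, adjusted p = 0.00314), Krt16 from 29.9, 110.3 and 8.55 to 3816, 2451 and 2308 CPM and Krt6a from 79.3, 97.1 and 49.04 to 2087, 1209 and 1058 CPM. Krt6a and Krt6b share 37.1% and 39.2% of their windows with each other or related genes, so the division of reads between them is uncertain. The keratins of normal layers did not rise together. Krt1 of the spinous layer rose from 527, 353 and 296 to 7972, 8074 and 5716 CPM (log2 fold change 4.21 ± 0.43, adjusted p = 3.1e-05), whereas its partner Krt10 was not called, at 8162, 5054 and 5082 and 8016, 8286 and 8316 CPM (log2 fold change 0.43 ± 0.20). In the basal layer Krt14 rose from 4834, 3744 and 3382 to 12040, 10160 and 8991 CPM (log2 fold change 1.38 ± 0.18) and its partner Krt5 reached a log2 fold change of 0.87 ± 0.13, under the threshold. Krt15, of quiescent basal cells and the hair follicle bulge, fell from 1155, 1191 and 1382 to 488, 518 and 637 CPM (log2 fold change -1.18 ± 0.15, adjusted p = 0.000106). Krt24 fell from 414, 233 and 259 to 56.7, 18.4 and 27.7 CPM (log2 fold change -3.14 ± 0.38, adjusted p = 7.99e-05).

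The epidermal differentiation genes differed between and within subfamilies. Among the Sprr genes 12 of 14 were raised, with a median of 5.43. Sprr2b rose from 0.111, 0.1699 and 0 to 257, 99.7 and 92.97 CPM and Sprr2d from 1.05, 2.24 and 0.242 to 464, 196 and 181 CPM (log2 fold change 7.87 ± 0.79, adjusted p = 2.99e-05). Replicate 1 of the combination was the highest in both, as it was in the stress keratins. Of the 21 Lce genes, all 6 of the Lce3 group were raised. Lce3b rose from 0.111, 0.878 and 0 to 104, 13.97 and 30.8 CPM (log2 fold change 7.20 ± 1.43, adjusted p = 0.00179) and Lce3a from 0.304, 0.623 and 0.242 to 74.4, 10.3 and 23.98 CPM. The Lce1 genes, which serve the resting envelope, were mostly not called, with Lce1a1 at 136, 87.9 and 85.3 and 143, 47.6 and 103 CPM. Of them Lce1f was raised and Lce1m was lowered. Lce1m fell from 322, 309.6 and 314 to 37.6, 13.4 and 44.04 CPM (log2 fold change -3.31 ± 0.48, adjusted p = 0.000234).

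The filaggrin-type proteins, which fuse an S100 domain to long repeats, also differed among themselves. Rptn rose from 84.8, 59.9 and 63.01 to 2298, 1381 and 1168 CPM (log2 fold change 4.54 ± 0.58, adjusted p = 0.000113). Flg, which gives the natural moisturising factor, lay at 577, 124 and 154 CPM after PBS, highest in replicate 1, and rose to 1182, 1214 and 1108 CPM (log2 fold change 2.03 ± 0.48). Flg2 fell from 2703, 2466 and 2526 to 594, 291 and 828 CPM (log2 fold change -2.17 ± 0.39, adjusted p = 0.000971), and the loricrin gene Lor was not called, at 327, 252 and 215 and 253, 245 and 285 CPM. In this list 6 of 23 genes were raised and 1 lowered, and 10 were raised without PBS replicate 1. Casp14, the caspase that processes filaggrin, rose from 33.9, 21.8 and 20.5 to 236, 210 and 168 CPM (log2 fold change 3.01 ± 0.28, adjusted p = 2.01e-05).

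**Figure D4:**
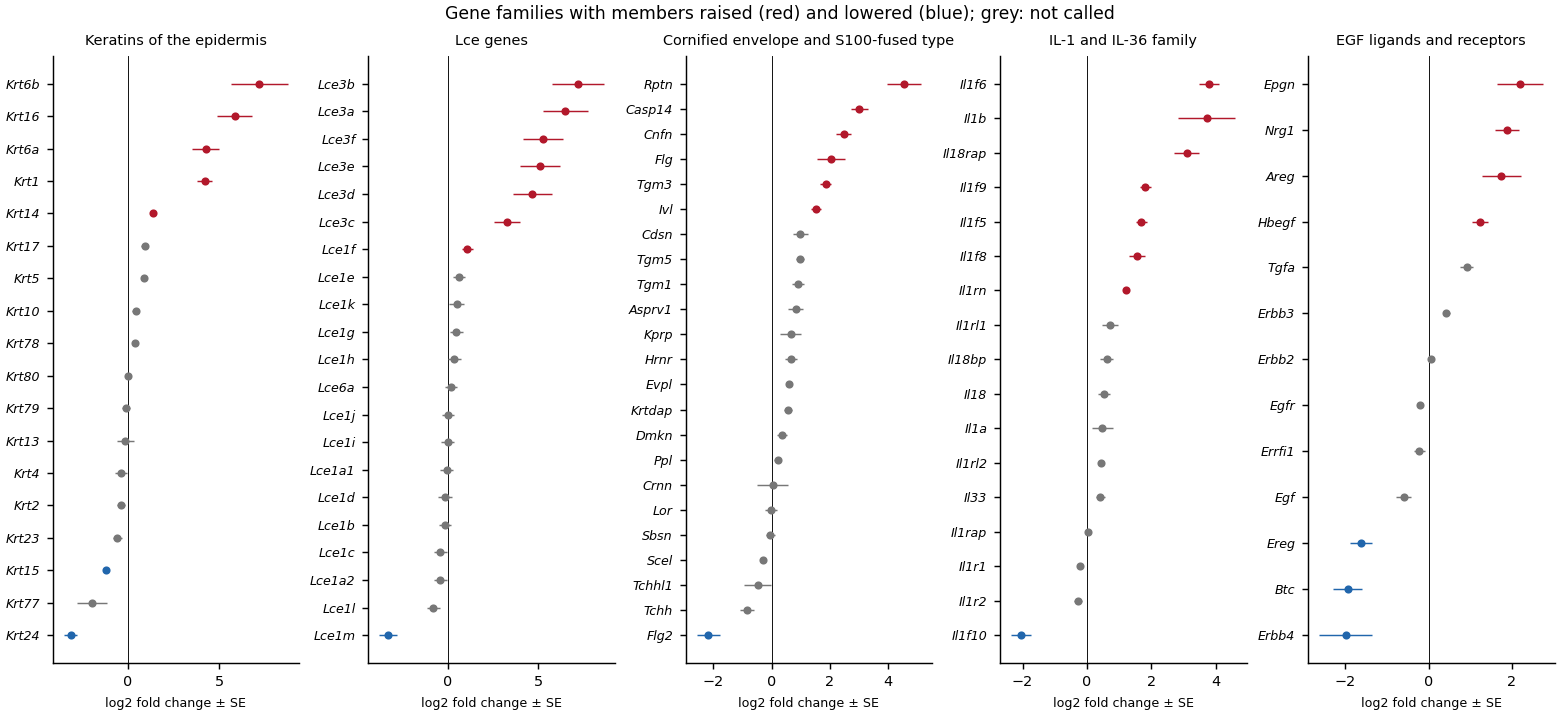
Points are log2 fold changes of IL-17A + IL-36γ over PBS with bars of 1 SE for the members of 5 groups, in red where raised, blue where lowered and grey where not called. Each group holds members on both sides: Krt6b at 7.20 and Krt24 at -3.14, Lce3b at 7.20 and Lce1m at -3.31, Rptn at 4.54 and Flg2 at -2.17, Il1f6 at 3.78 and Il1f10 at -2.05, and Epgn at 2.19 and Btc at -1.94.

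Epidermal proteases and their inhibitors held 18 raised and 0 lowered of 35. Klk13, a kallikrein, rose from 3.85, 1.84 and 1.36 to 147, 101 and 69.8 CPM (log2 fold change 5.48 ± 0.55, adjusted p = 2.96e-05), Klk6 from 35.7, 19.4 and 15.9 to 409, 211 and 229.7 CPM and Prss27 from 6.31, 4.53 and 2.46 to 103, 46.5 and 54.1 CPM. Of the clade A serpins, Serpina3n rose from 32.6, 33.6 and 27.9 to 102, 91.99 and 99.7 CPM (log2 fold change 1.64 ± 0.10). Its relatives Serpina3b and Serpina12 fell, Serpina3b from 104, 107 and 144 to 25.2, 19.5 and 25.2 CPM (log2 fold change -2.34 ± 0.21, adjusted p = 1.63e-05) and Serpina12 from 179, 149.5 and 159 to 45.1, 29.1 and 59.5 CPM. The gap junction genes rose, with Gjb6 from 5.48, 2.69 and 1.97 to 65, 42.3 and 38.4 CPM (log2 fold change 3.84 ± 0.48, adjusted p = 9.78e-05) and Gjb2 from 28.7, 14.3 and 10.6 to 226, 133 and 120 CPM, while desmosomal Dsp was not called (log2 fold change 0.12 ± 0.09). Ligands of the EGF receptor were divided, in a list with 4 raised and 3 lowered of 13. Hbegf rose from 11.8, 10.9 and 9.85 to 24.4, 19.8 and 32.3 CPM (log2 fold change 1.23 ± 0.20, adjusted p = 0.000454), and Nrg1, a ligand of ErbB receptors, from 1.85, 2.46 and 2.27 to 9.13, 8.27 and 6.92 CPM. Ereg fell from 52.5, 59.4 and 58.5 to 17.8, 10.6 and 26.6 CPM (log2 fold change -1.63 ± 0.26, adjusted p = 0.000454) and Btc from 17.7, 24.7 and 19.5 to 5.07, 4.02 and 7.06 CPM (log2 fold change -1.94 ± 0.35). Barrier lipid genes were mostly not called, with 4 raised and 1 lowered of 24 (2 raised without combination replicate 1, and 2 lowered without PBS replicate 2). Degs2, which hydroxylates ceramides, rose from 12.7, 5.35 and 7.64 to 56.4, 30.1 and 38.99 CPM, and Alox12e, an epidermal lipoxygenase, fell from 89.4, 131 and 122 to 26.9, 29.3 and 48.4 CPM (log2 fold change -1.71 ± 0.24, adjusted p = 0.00022).

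Cell division and metabolism moved together in part. Of the mitosis genes 26 of 27 were raised, 0 were lowered and the median was 1.90. Plk1, a mitotic kinase, rose from 8.17, 3.17 and 3.64 to 31.9, 33.2 and 22.2 CPM (log2 fold change 2.54 ± 0.32, adjusted p = 0.000109) and Birc5 (survivin) from 17.9, 7.05 and 7.76 to 46.98, 51.5 and 46.7 CPM. PBS replicate 1 held the highest PBS value in both, and the count was 26 without it as well. DNA replication held 12 raised of 27, and 19 without PBS replicate 1, with Mcm5 of the replicative helicase at 41.5, 25.4 and 27.4 and 104, 93.02 and 84.4 CPM (log2 fold change 1.58 ± 0.18). Replication-type histone genes, named Hist, rose in 49 of 57 cases, among them Hist1h2bj from 20.04, 7.67 and 6.24 to 64.6, 60.6 and 44.95 CPM (log2 fold change 2.32 ± 0.35). Their sequences are alike, with 50% of the windows of Hist1h2bj found in other histone genes, and the count is therefore not one of separate genes. Ribosomal protein genes showed no such change, with 0 of 31 called.

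Glycolysis and glucose uptake held 12 raised and 1 lowered of 22, with a median of 1.15. Hk3, a hexokinase of myeloid cells, rose from 4.87, 5.52 and 3.88 to 23.2, 26.6 and 25.1 CPM (log2 fold change 2.39 ± 0.18, adjusted p = 6.36e-06). Pgk1 rose from 54.8, 52.4 and 47.95 to 218, 164 and 151 CPM (log2 fold change 1.78 ± 0.14, adjusted p = 9.91e-06), although 67.5% of its windows also occur in related genes and pseudogenes. The lowered glycolysis gene was called only with all 6 libraries or without PBS replicate 1 or combination replicate 3. Oxidative phosphorylation held 1 raised and 1 lowered of 32, with 3 lowered without PBS replicate 1 or combination replicate 3, 0 lowered without any 1 of the other 4 libraries, and 0 raised without PBS replicate 3 or combination replicate 1. Slc7a11, the cystine transporter and a target of NRF2, rose from 11.7, 17.98 and 6.001 to 339, 215 and 128 CPM (log2 fold change 4.25 ± 0.55, adjusted p = 0.000128), in a list with 7 raised of 21 and 11 without PBS replicate 1. Hmox1 rose from 73.9, 55.5 and 51.4 to 190.1, 160.4 and 180.4 CPM (log2 fold change 1.55 ± 0.15). Uox, which codes for urate oxidase, a liver enzyme of purine breakdown, belonged to no list and was among the 12 most raised genes. It rose from 0.0554, 0.396 and 0 to 115, 39.4 and 38.5 CPM (log2 fold change 8.67 ± 1.03, adjusted p = 7.71e-05).

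Of the genes used as references in qRT-PCR 3 of 13 were raised and 0 lowered. Gapdh rose from 188, 201 and 177 to 614, 504 and 448 CPM (log2 fold change 1.47 ± 0.13, adjusted p = 1.67e-05) and B2m, the MHC class I light chain, from 188, 269 and 244 to 520.5, 618 and 571 CPM (log2 fold change 1.28 ± 0.13). Hprt was above PBS in every combination library, at 99.7, 102 and 91.03 CPM against 61.2, 48.8 and 48.1 CPM, with a log2 fold change of 0.89 ± 0.12 below the threshold. Scaled by total counts alone, Gapdh, B2m and Pgk1 were still raised.

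The lowered protein-coding genes were spread over many programs. Only 14% of them were on a list, against 22% of the raised ones. Cartilage and fat, structural tissues of the ear, were among the lowered groups. Of the cartilage genes 13 of 18 were lowered and 0 raised, with a median of -1.18. Col9a1 fell from 52.5, 44.6 and 49.9 to 11.5, 15.4 and 14.2 CPM (log2 fold change -1.84 ± 0.18, adjusted p = 2.84e-05) and Col11a2 from 34.3, 50.4 and 53.9 to 11.1, 16.5 and 15.7 CPM (log2 fold change -1.68 ± 0.22). Of the adipocyte genes 14 of 20 were lowered and 0 raised, and 9 without PBS replicate 2 or without combination replicate 2. Lep (leptin) fell from 9.88, 11.01 and 10.8 to 2.46, 0.951 and 2.78 CPM (log2 fold change -2.35 ± 0.46, adjusted p = 0.00162) and Plin1, which coats lipid droplets, from 17.4, 22.6 and 25.2 to 6.28, 5.23 and 10.9 CPM (log2 fold change -1.54 ± 0.37). Lpl, a lipase that macrophages make too, was not called, at 153, 131 and 149 and 122, 149.7 and 148 CPM. Scd1, a desaturase of sebaceous and fat cells, had the largest loss of CPM among lowered protein-coding genes whose groups did not overlap, from 8667, 5404 and 6856 to 3214, 3292 and 2647 CPM (log2 fold change -1.19 ± 0.20, adjusted p = 0.000575).

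Skeletal muscle genes were lowered in 11 of 27 cases with a median of -1.56, but this group rested on single libraries. Its summed level was 1934, 13350 and 11640 CPM after PBS and 1698, 1258 and 5441 CPM after both cytokines, so that PBS replicate 1 lay among the combination libraries. All 27 genes tested were lowered without PBS replicate 1 or without combination replicate 3, and 2 with any 1 of the other 4 libraries left out. Actn3 stands for the group, at 3.82, 31.2 and 27.2 CPM after PBS and 2.69, 1.86 and 7.12 CPM after both cytokines. How much muscle each piece of ear held was not measured.

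Genes on the list of collagens and matrix, which leaves out those of cartilage, were rarely called. Of the collagens and matrix genes 1 was raised and 2 were lowered of 32, with 1 lowered without PBS replicate 2 or combination replicate 1, 5 without PBS replicate 1 and 6 without combination replicate 3. Col1a1 and Col3a1 were not called (log2 fold changes of -0.54 ± 0.31 and -0.29 ± 0.17). Tnc (tenascin C), a matrix protein of wounds, was the raised one and rose from 222, 190.3 and 154 to 871, 907 and 900.2 CPM (log2 fold change 2.24 ± 0.30, adjusted p = 0.000162). Collagens taken by symbol (Col), with those of cartilage included, were lowered more often than this list. Of 45 tested, 1 was raised and 14 (31.1%) were lowered, with a median of -0.76, beside 5.99% lowered of all protein-coding genes. Timp1, an inhibitor of matrix proteases, rose from 9.13, 11.5 and 4.82 to 93.7, 84.7 and 103 CPM (log2 fold change 3.46 ± 0.36, adjusted p = 3.55e-05), whereas its relative Timp4 fell from 11.8, 22.3 and 17.3 to 5.07, 3.66 and 4.25 CPM (log2 fold change -1.99 ± 0.33). Gsn (gelsolin), an actin-severing protein, fell from 2813, 3530 and 3650 to 1245, 1067 and 1542 CPM (log2 fold change -1.37 ± 0.19, adjusted p = 0.000166). Myoc fell from 692, 669 and 719 to 237, 237 and 254 CPM (log2 fold change -1.51 ± 0.09, adjusted p = 3.61e-06), with a narrow spread in both groups. Of the fibroblast identity genes 2 were raised (1 without PBS replicate 1 or combination replicate 1 or 3) and 4 lowered of 20 (2 lowered without PBS replicate 2 or combination replicate 1), among the lowered ones Dpt from 171, 254 and 246 to 79.5, 68.6 and 123 CPM, while Pdgfra was not called (log2 fold change -0.09 ± 0.08). Endothelial genes held 2 raised and 0 lowered of 24, and both raised ones were the adhesion molecules Sele and Selp, which capture leukocytes. Selp rose from 2.38, 2.55 and 2.55 to 5.34, 6.69 and 6.52 CPM (log2 fold change 1.31 ± 0.18, adjusted p = 0.000165), and Pecam1 was not called (log2 fold change 0.02 ± 0.08).

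Pigment, nerve and hair genes were lowered in part. Of the melanocyte genes 0 were raised and 4 lowered of 11, with Pmel, the fibril protein of melanosomes, from 33.6, 25.2 and 25.4 to 11.6, 11.8 and 10.3 CPM (log2 fold change -1.32 ± 0.12, adjusted p = 1.96e-05) and Tyrp1 from 36.04, 27.2 and 25.2 to 13.8, 12.8 and 10.2 CPM (log2 fold change -1.27 ± 0.15). Of the Schwann cell and nerve genes 5 of 18 were lowered, and 2 without PBS replicate 2 or 3. S100b fell from 44.5, 61.9 and 69.4 to 18.8, 24.6 and 24.1 CPM (log2 fold change -1.38 ± 0.22, adjusted p = 0.000401). The hair keratin list, which also holds Padi3, S100a3, Dsg4, Dsc2 and Crym, had 2 raised and 6 lowered of 22 (1 raised without combination replicate 1). The raised ones were Krt84 and Dsc2, which is also on the desmosome list, and S100a3 was among the lowered ones. Levels on this list were low, with Krt31 at 0.332, 1.05 and 0.455 and 0.03902, 0.0732 and 0.1003 CPM, and 12 of 17 keratin-associated protein genes (Krtap) were lowered too. Krt84 was an exception and rose from 1.33, 1.53 and 1.12 to 7.84, 4.83 and 8.79 CPM (log2 fold change 2.43 ± 0.24, adjusted p = 2.99e-05).

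Of the Wnt signal genes 0 were raised and 8 lowered of 30 (5 without PBS replicate 2 or without combination replicate 1 or 2). Wif1, a secreted Wnt inhibitor, fell from 216, 300.5 and 311 to 77.9, 102 and 128 CPM (log2 fold change -1.43 ± 0.19, adjusted p = 0.000131), and the ligands Wnt2 and Wnt10b fell as well, Wnt10b from 2.91, 4.53 and 5.304 to 0.663, 0.439 and 0.836 CPM (log2 fold change -2.70 ± 0.30, adjusted p = 5.17e-05). BMP, Id and TGF-beta signals held 1 raised and 3 lowered of 24 (0 raised without combination replicate 2, and 5 lowered without PBS replicate 1 or combination replicate 2 or 3), with Nog (noggin), a BMP antagonist, from 4.29, 3.99 and 2.94 to 1.25, 1.54 and 1.47 CPM (log2 fold change -1.40 ± 0.22). FGF, IGF and hedgehog signals held 0 raised and 5 lowered of 25 (3 without PBS replicate 2 or 3), with Fgf18 from 4.51, 4.93 and 4.88 to 1.29, 1.83 and 2.14 CPM (log2 fold change -1.44 ± 0.22, adjusted p = 0.000296). No Notch gene of 16 was called, and at most 2 were with 1 library left out. Of the nuclear receptor and steroid genes 4 of 25 were lowered (1 without PBS replicate 2 and 2 without combination replicate 3). Zbtb16, induced by glucocorticoids, fell from 21.9, 55.8 and 42.3 to 13.7, 13.8 and 15.3 CPM (log2 fold change -1.48 ± 0.28, adjusted p = 0.00128), with the lowest PBS value in replicate 1. Of the retinoid and xenobiotic genes 2 were raised and 8 lowered of 37 (5 without PBS replicate 3). Dhrs9, a retinol dehydrogenase, rose from 7.45, 8.55 and 4.58 to 114, 61.01 and 79.6 CPM (log2 fold change 3.62 ± 0.33, adjusted p = 2.01e-05), and Ces1d, a carboxylesterase of fat, fell from 45.1, 63.4 and 58.1 to 15.6, 10.3 and 18.1 CPM (log2 fold change -1.92 ± 0.23, adjusted p = 7.15e-05).

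Some ion channel genes and some receptor genes of the Mas-related family were among the lowered ones. Potassium channels and pumps held 1 raised and 8 lowered of 24, with 3 raised without PBS replicate 1 and 2 without combination replicate 3. Kcna1 fell from 18.5, 21.3 and 24.2 to 7.61, 8.19 and 9.06 CPM (log2 fold change -1.36 ± 0.17, adjusted p = 0.000118), whereas Atp1b1, a subunit of the sodium pump, rose from 12.2, 23.9 and 21.2 to 65.98, 49.1 and 56.9 CPM (log2 fold change 1.58 ± 0.20). Among voltage-gated calcium channel genes (Cacna) 5 of 12 were lowered and 1, Cacna2d4, was raised, and the lowered Cacna1s is also on the skeletal muscle list and lost its call without PBS replicate 2 or 3 or combination replicate 1 or 2. Cacna1e fell from 21.2, 38.3 and 34.6 to 4.29, 3.77 and 5.48 CPM (log2 fold change -2.79 ± 0.36, adjusted p = 0.000119). P2rx2, an ATP-gated channel, fell from 5.54, 9.03 and 8.37 to 0.312, 0.146 and 0.535 CPM (log2 fold change -4.49 ± 0.50, adjusted p = 5.08e-05). Mrgprb3, a receptor of the Mas-related family, fell from 3.599, 6.74 and 6.58 to 0.156, 0.0732 and 0.903 CPM (log2 fold change -3.83 ± 0.59, adjusted p = 0.000353). Its relative Mrgpra9, named after its values were seen, lay at 0.692, 0.878 and 1.24 CPM after PBS and had no count in the combination libraries, at least 25.9-fold lower with a floor of 3 counts over the group. H2-M5, a non-classical MHC class I gene, was the most lowered gene by the rule for named genes, from 2.99, 8.61 and 6.61 to 0.07803, 0.1097 and 0.368 CPM (log2 fold change -4.95 ± 0.64, adjusted p = 0.000125). Of 358 zinc finger genes (Zfp) 1 was raised and 7 were lowered, with a median of -0.24.

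Other lists held few called genes. Sebaceous gland genes held 1 raised and 4 lowered of 22 (2 lowered without combination replicate 2), hair follicle regulators 0 and 3 of 22, and pericyte and smooth muscle genes 0 and 2 of 12 (4 lowered without PBS replicate 1 or combination replicate 3, 1 without combination replicate 1). Circadian clock genes held 0 raised and 2 lowered of 19 (1 lowered without PBS replicate 1 or combination replicate 1), and immediate early genes 1 and 0 of 19 (2 raised without PBS replicate 1, 0 without combination replicate 3). Matrix proteases and their inhibitors held 5 raised and 3 lowered of 24 (1 lowered without PBS replicate 1 or combination replicate 2), and mast cell genes 1 and 1 of 12 (0 raised without PBS replicate 3 or combination replicate 1, 2 raised without combination replicate 3, 0 lowered without combination replicate 2). Cholesterol and fatty acid synthesis held 1 raised and 1 lowered of 28 (0 raised without PBS replicate 2 or 3 or combination replicate 2). Genes of the citrate cycle and fatty acid oxidation held 0 raised and 1 lowered of 24 (0 to 3 lowered with 1 library left out). Basal keratinocyte genes held 1 and 1 of 14, and suprabasal keratins 1 and 1 of 11 (2 lowered without PBS replicate 1 or combination replicate 3).

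The combination was also compared directly with each single cytokine. Against IL-17A, 865 genes (4.46%) were higher and 872 (4.49%) lower after the combination. Against IL-36γ, 0 genes were called higher and 2 (0.0103%) lower in edgeR, at 2938 genes with an unadjusted p-value below 0.05. These 2, which lie outside the rule for named genes, were Chp2, a calcineurin B-type protein, at 22.1, 15.8 and 22.1 CPM after IL-36γ and 8.04, 8.63 and 11.4 CPM after both, and Lmx1a, a homeodomain factor, at 0.699, 0.822 and 0.964 and 0.234, 0.256 and 0.268 CPM. The likelihood ratio test of DESeq2 called 121 genes on all libraries and 153 on these 2 groups, in either direction. Against PBS, IL-17A raised 208 genes (1.07%) and lowered 199 (1.03%), and IL-36γ raised 992 (5.11%) and lowered 385 (1.98%). For members of both directions the values after each treatment, which share the PBS mice, stood side by side as follows. The order is IL-17A, IL-36γ and the combination. Krt1 had log2 fold changes over PBS of 1.56, 3.13 and 4.21. Slc7a11 had 1.03, 2.63 and 4.25. Saa3 had 4.84, 7.70 and 7.65. Among lowered genes, Cd207 had 0.03, -2.05 and -3.28, Lep 0.32, -0.65 and -2.35, and Gsn -0.02, -0.54 and -1.37. In Cd207, Lep and Gsn the difference between both cytokines and IL-36γ alone did not pass the test in edgeR (adjusted p = 0.153, 0.148 and 0.106). Against IL-17A alone it did in all 3 (adjusted p = 0.000144, 0.00153 and 0.000504).

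**Figure D5:**
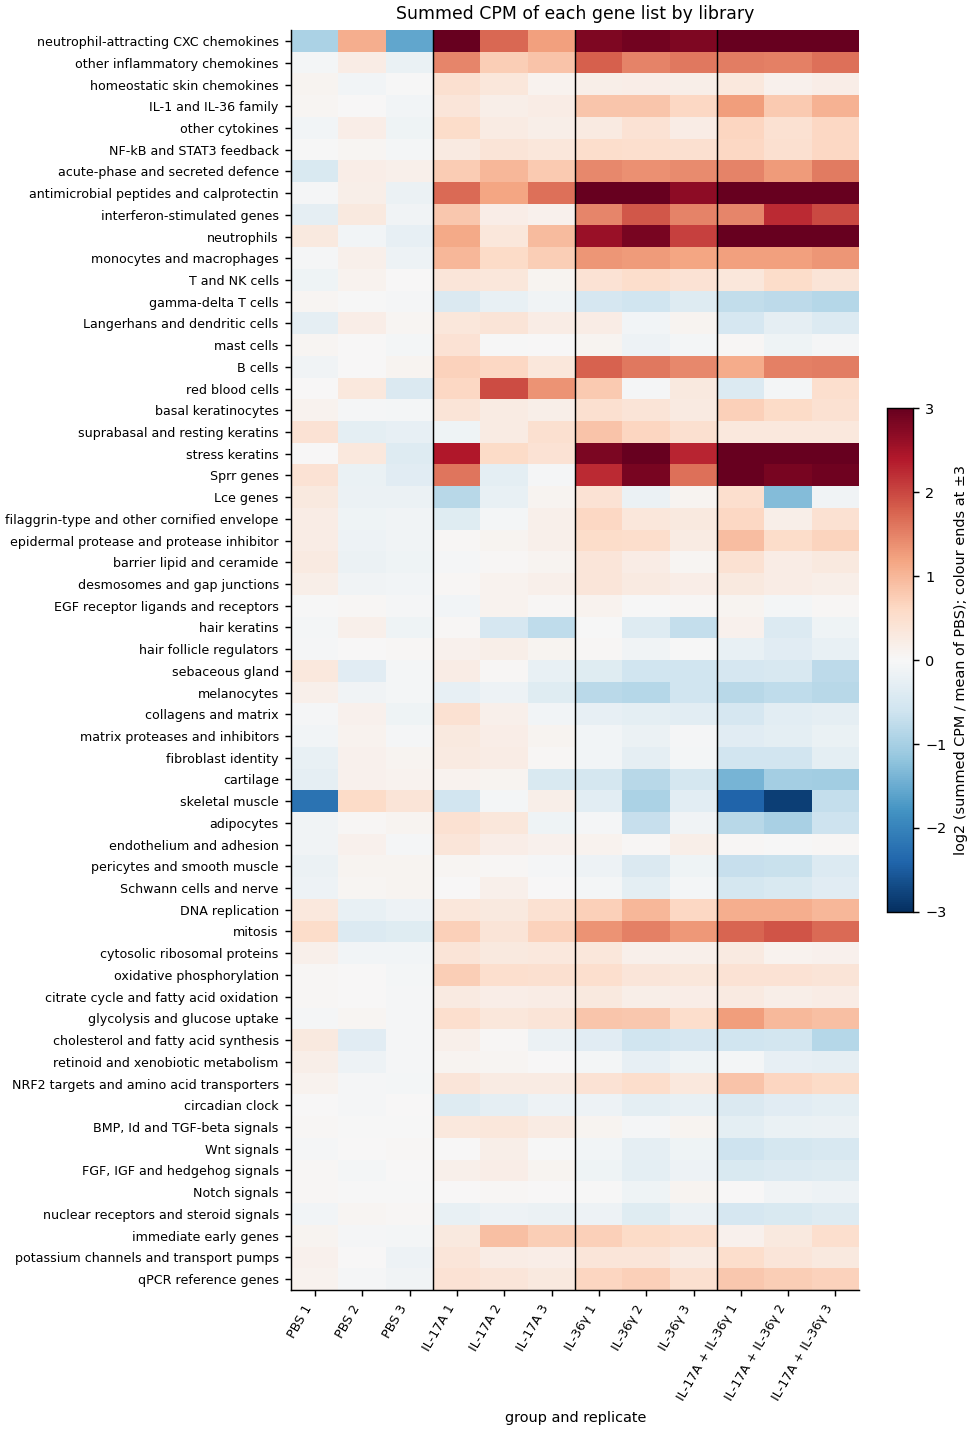
Each row is a gene list and each column a library of the 4 groups, and colour gives the log2 ratio of the summed CPM of the list to its mean over the PBS libraries, ending at 3 and -3. Neutrophil, antimicrobial, stress keratin and Sprr lists are dark red in all 3 combination libraries, cartilage and adipocyte lists are blue in them, and the skeletal muscle row is blue in PBS replicate 1 as well.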

How the data were processed

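Total RNA of mouse ears was depleted of ribosomal RNA and sequenced as stranded paired reads. The authors aligned reads with STAR 2.5.2b to mm10 and assigned them to Ensembl genes by featureCounts (Subread 1.5.1). The strand setting and annotation release are not given in the sources used here. The deposited table holds raw counts of 50684 genes in 12 libraries, and each column was matched to a sample by its label. The authors' tables of DESeq2 comparisons (version 1.30.0), with fold changes and p-values, were not used.

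Symbols were taken from a GRCm38 annotation for 50460 genes. Genes were filtered with filterByExpr (minimum count 10), which left 19408, scaled by TMM and fitted in edgeR 4.0.16 (R 4.3.3) with 1 mean per group over all 12 libraries. The quasi-likelihood test with Benjamini-Hochberg adjustment gave all adjusted p-values. The common biological coefficient of variation was 14.2%. Calls required a change beyond 1 on the log2 scale in either direction with an adjusted p-value under 0.05. On simulated counts for the comparison with PBS (18991 genes, absolute log2 fold change 2), 199 of 200 changed genes were called. So were 5 unchanged genes. The changed genes all had a mean above 1 CPM after PBS. Smaller changes and lower levels were not simulated, so the result does not speak for calls of that kind. Alternatives used DESeq2 1.42.0, other scalings, filters, thresholds and subsets of libraries.

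Members and gene lists were chosen with earlier results of these data known. Named were protein-coding genes and antigen receptor segments: the 12 most raised and lowered with groups that did not overlap and at least 1 CPM, the 8 with the largest gain or loss of CPM, up to 4 called members per list and direction and up to 2 uncalled ones of sparsely called lists, cell type markers, up to 3 members of symbol families with at least 30% called in 1 direction, and the genes of the qRT-PCR. Il17ra, Il17rc, Krt10, Lor, Lpl, Hprt, Chp2, Lmx1a and Mrgpra9 were added after their values were seen. Sequence sharing was counted over 76-base windows of transcripts.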

Additional observations from a re-analysis of the deposited data

How the results depend on the processing

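Against PBS, the counts of raised and lowered genes stayed within 1.5 times of the reported ones under every alternative except the fold threshold. With no fold threshold 4608 genes were raised and 4056 lowered, of which 4248 and 3471 were protein-coding. Above an absolute log2 fold change of 2 they numbered 443 and 173, of which 375 and 139 were protein-coding. Leaving out 1 library gave 1315 to 1541 raised and 884 to 1629 lowered genes, the most in both directions without PBS replicate 1, and 1117 to 1291 raised and 697 to 1201 lowered protein-coding genes. Scaling by total counts alone moved the share of raised genes among calls from 54.8% to 41.9%.

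The comparison with IL-36γ depended on the test. In place of 2 genes, DESeq2 called 121 on all libraries and 153 on the 2 groups, edgeR called 82 with no filter on low counts and 4 with no fold threshold, and it called 0 with total-count scaling, with at least 10 counts in every library, with only the 2 groups or above a log2 fold change of 2. Leaving out 1 library gave 0 to 62 genes, with 62 without IL-36γ replicate 2 and 39 without combination replicate 3. The cause was not tested. Against IL-17A, 6355 genes were called with no fold threshold and 340 above a log2 fold change of 2, in place of 1737, and 1291 to 1990 with 1 library left out.

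The deviations of same-numbered PBS and combination libraries from their group means correlated at 0.31, -0.199 and 0.352 for replicates 1, 2 and 3, so the numbers were not taken as pairs. With the replicate number as a block 1429 genes were raised and 1196 lowered against PBS, and 0 were called against IL-36γ.

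Of the genes named in the text, 148 were followed gene by gene under the alternatives. None of these reversed, 141 kept their call under every alternative run for them, 4 lost it and 3 gained one in at least 1. Genes named without values, such as Foxp3, Batf3, Mrc1 and Lce1f, were not all followed in this way. The changed fold thresholds were not run gene by gene, and a threshold of 2 on the log2 scale removes every call of a smaller change. Genes below 1 CPM rest on few counts, and changes in them are less precise.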
